A study of Mus musculus with 12 samples.

Results

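The heat shock proteins and chaperones were taken as the features whose gene symbol starts with Hspa, Hspb, Hspd, Hspe, Hsph, Hsp9, Dnaja, Dnajb, Dnajc or Cct with a digit, either alone or as 1 part of a feature name that joins overlapping genes. This rule found 83 of the 19549 features, of which 51 were placed in the cytosol and nucleus, 13 in the endoplasmic reticulum (ER), 9 in mitochondria and 10 in other or unassigned places. They were read in bone marrow-derived macrophages of naive female FVB mice, polarized for 4 h with IFNG (200 units/mL) or with IL4 (40 ng/mL). From about 10% of each preparation total mRNA was sequenced, and from the rest the mRNA carrying more than 3 ribosomes, collected from a 5 to 50% sucrose gradient, both with SmartSeq2 libraries. This gave 4 groups of 3 libraries, named IFNG total, IL4 total, IFNG polysome and IL4 polysome. Every polarization difference is IFNG relative to IL4, since macrophages without either cytokine were not analysed here. Nothing in the labels ties a replicate to its own mouse or dish, and the p-values may therefore reflect technical spread alone.

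Chaperones hold unfolded or unassembled proteins and release them for folding. In the cytosol, J proteins (DNAJ) deliver clients to HSP70, which holds them in an ATP-driven cycle, and exchange factors such as HSP110 restart that cycle. HSP90 then finishes kinases and receptors, and the CCT ring folds actin and tubulin. The ER has its own HSP70 (BiP, Hspa5) and HSP90 (GRP94, Hsp90b1), the latter needed by macrophages to fold Toll-like receptors, and mitochondria have theirs together with the HSP60 and HSP10 chamber. Heat shock factor 1 drives the cytosolic genes through heat shock elements, and the unfolded protein response drives the ER genes through ER stress elements.

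Promoter sequences of ER and heat-inducible members come first, since members that share these letters are named together in the results. RefSeq start windows (250 bases before to 50 after each start, build GRCm38.p6) were found for 68 of the 83 members, 87 windows in all. An ER stress element, here the letters CCAAT, 9 bases and CCACG on either strand, was present in 39 of all 32851 windows (0.119%) and in 3 of the 87 member windows, which belong to Hspa5, Hsp90b1 and Dnajc3, all 3 of them ER members. Their 250 bases before the start follow 5′ to 3′ with the element in capitals, at chr2:34771840-34772089 (plus strand), chr10:86705445-86705694 (minus strand, 2 elements, the second on the opposite strand of the gene) and chr14:118937682-118937931 (plus strand).
Hspa5: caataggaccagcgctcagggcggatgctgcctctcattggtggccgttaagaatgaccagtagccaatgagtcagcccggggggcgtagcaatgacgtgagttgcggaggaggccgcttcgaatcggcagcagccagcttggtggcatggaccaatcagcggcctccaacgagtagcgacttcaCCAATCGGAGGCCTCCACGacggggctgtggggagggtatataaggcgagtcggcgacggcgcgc
Hsp90b1: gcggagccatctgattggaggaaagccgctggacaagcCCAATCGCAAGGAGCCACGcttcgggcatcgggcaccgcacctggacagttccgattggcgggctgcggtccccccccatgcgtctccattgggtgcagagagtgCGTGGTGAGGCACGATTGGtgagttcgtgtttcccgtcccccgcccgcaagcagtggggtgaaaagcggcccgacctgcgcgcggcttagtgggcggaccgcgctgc
Dnajc3: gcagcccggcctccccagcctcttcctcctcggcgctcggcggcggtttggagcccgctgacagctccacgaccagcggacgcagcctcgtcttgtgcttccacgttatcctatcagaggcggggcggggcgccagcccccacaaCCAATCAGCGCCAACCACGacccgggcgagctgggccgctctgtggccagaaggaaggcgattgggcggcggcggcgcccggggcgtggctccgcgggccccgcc

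A heat shock element, here 3 units alternating GAA and TTC with 2 bases between them on either strand, was present in 198 of all 32851 windows (0.603%) and in 6 of the 87 member windows, which belong to 4 genes, Hspe1, Hspd1, Hsph1 and Dnajb6. Hspe1 and Hspd1, which encode HSP10 and HSP60, are divergent neighbours whose start windows share 285 bases, so 1 stretch counts for both. The matched letters, all in capitals, lie 89 to 72 bases before the Hspe1 start (chr1:55088059-55088076, plus strand, 2 overlapping elements), 36 to 48 bases after an Hsph1 start (chr5:149636288-149636300, minus strand) and 46 to 34 bases before a Dnajb6 start (chr5:29735852-29735864, plus strand). The searched motifs share no unit. A match describes the letters only, and no match says only that these letters are not in the window.
Hspe1: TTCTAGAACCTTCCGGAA
Hsph1: TTCTGGAAAGTTC
Dnajb6: GAATCTTCCGGAA

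The libraries held 2563955 to 22014162 counts, of which the members took 0.360 to 0.985%, and 3 counts corresponded to 0.184 to 1.13 CPM, the usual depth-scaled count (here on TMM-scaled library sizes). A single feature, Lars2, took 0.341 to 2.00% of the counts of the total libraries and 1.78 to 29.3% of the polysome libraries, with the highest share in IFNG polysome replicate 3. The polysome libraries were also the shallower ones, with at most 8789480 counts. The macrophage markers summed to 7825 to 24340 CPM. The T and NK cell markers reached at most 0.369 CPM with Cd3e, Cd3g and Ncr1 at 0, the B cell markers at most 6.21 CPM with Ms4a1 and Pax5 at 0, and the neutrophil markers 12.9 to 56.8 CPM. Of the dendritic cell markers Flt3 was at 0, while the list's sum was 8.43 to 44.4 CPM with IFNG and 0.552 to 2.12 CPM with IL4, carried by Xcr1 and Clec9a. The stromal markers summed to at most 43.3 CPM, and the erythroid and megakaryocyte list to 35.9 to 1104 CPM, nearly all of it Pf4, which macrophages also express. The part of these differences in the chaperone values was not tested.

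Of the 83 members, 67 had enough counts to be tested and 16 had not, 7 of the latter with no read in any library (Dnajb7, Dnajb8, Dnajc6, Hspb3, Dnajc22, Dnajc5b and Dnajc5g). The other 9 untested features were Hspa12b, Dnaja4, Hspb1, Hspb7, Hspb8, Hspb9, Cct6b, Cct8l1 and Dnajb3. Most members of the small heat shock protein family, which hold aggregating proteins without ATP, are among the untested features, and 5 of the 7 listed in the cytosol were not tested. Of the tested features 8 join the reads of neighbouring genes, so their values cannot be given to 1 gene. Reads of Hspa1a and Hspa1b, which are near-identical copies, and of Hspa8, Hsp90aa1, Hsp90ab1, Hspd1, Hspe1 and the Cct genes, which have processed copies elsewhere in the genome, may be split by the counting, so these values are uncertain to that extent.

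The first comparison asked how the chaperone mRNAs were distributed between polysomes and the total pool, averaged over both polarizations. On polysomes 9 of the 67 tested members were higher and 16 lower, while over all 10421 tested features 22.6% were higher and 25.7% lower. The members' calls thus made up no larger a share than those of all features. The cytosolic HSP90 pair, the HSP110 gene Hsph1, the ER chaperones Hsp90b1 and Hspa13 and the endosomal Dnajc13 were higher, and 5 of the 6 mitochondrial J proteins and HSP10 were lower. Since CPM is a share of the reads of a library, a lower value on polysomes is a smaller share of the polysomal reads. In these bulk samples fewer cells with the mRNA on polysomes and less of it on polysomes per cell cannot be told apart. Between the polarizations the same holds for fewer cells and less RNA per cell. The polysome pool was cut by the number of ribosomes on an mRNA, which the length of the coding sequence can limit. Whether coding length had a part in the differences between the pools, by gene, gene pair or compartment, was not tested. Without Lars2, whose removal moved the median of all features by -0.14 on the log2 scale, 6 members were higher and 21 lower. Leaving out any single library left 5 to 9 higher and 11 to 21 lower, and the 5 came without IFNG total replicate 1 or 2, or without IL4 total replicate 1 or 2.

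**Figure D1:**
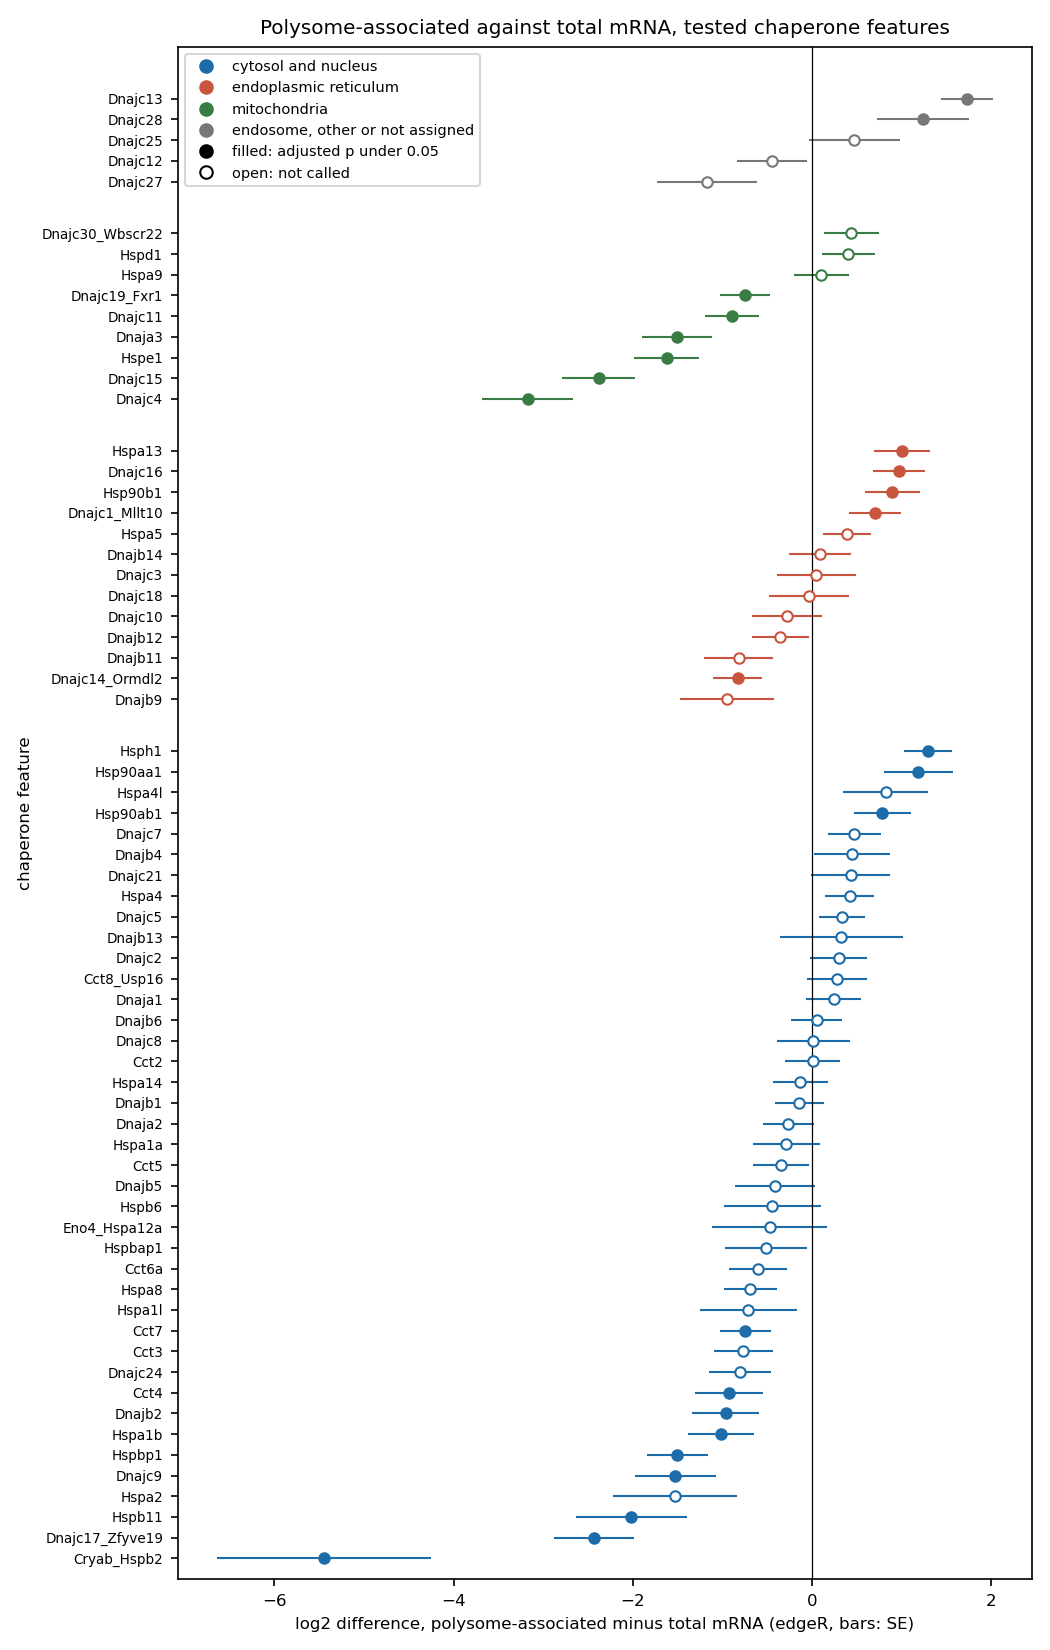
Fitted log2 difference between polysome-associated and total mRNA for each of the 67 tested chaperone features, grouped by compartment, with the standard error as bars and filled points for adjusted p under 0.05. All 6 called mitochondrial features lie to the left of 0, and 4 of the 5 called ER features lie to the right.

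By compartment, 3 of 40 tested cytosolic and nuclear features were higher and 9 lower, with a median log2 difference of -0.32. Of the 13 ER features 4 were higher and 1 lower, with a median of 0.05. Of the 9 mitochondrial features 0 were higher and 6 lower, with a median of -0.90, and of the 5 others 2 were higher and 0 lower. Over all tested features the median was 0.04, with 22.6% higher and 25.7% lower. The mitochondrial count of 6 and its lower median stood under DESeq2 size factors, a minimum of 10 CPM and without Lars2 (medians -0.91, -0.86 and -1.04). The medians of all features were then 0.04, 0.11 and -0.09. Without joined features 5 of 7 were lower, with a median of -1.53, and without IFNG total replicate 1 or IL4 total replicate 2 the count was 4, as Dnajc11 and Dnajc19_Fxr1 were lost. The ER median was -0.09 without Lars2, as was that of all features, with 3 ER features higher and 2 lower.

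Among the cytosolic HSP70 machinery, Hsph1, the HSP110 exchange factor, had the lowest adjusted p of the higher cytosolic members. Its level was 32.2, 36.8 and 33.4 CPM in IFNG total, 38.9, 48.4 and 44.7 CPM in IL4 total, 86.3, 99.8 and 47.6 CPM in IFNG polysome and 112, 104 and 129.7 CPM in IL4 polysome. Every polysome library stood above every total library of the same polarization, and only IFNG polysome replicate 3 reached into the range of the IL4 total libraries. The log2 difference was 1.29 ± 0.27 (SE, edgeR adjusted p = 5.71e-04).

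Hspa8, the constitutive HSP70 that Hsph1 serves, had a difference below 0. It stood at 1062, 590.5 and 1172 CPM in IFNG total and 504, 762 and 841 CPM in IL4 total, and at 811, 606 and 356 CPM and 445, 474 and 371 CPM on polysomes with IFNG and IL4. The IL4 groups were apart and the IFNG groups overlapped, and the log2 difference of -0.69 ± 0.30 (SE, edgeR adjusted p = 0.0608) was not called. It was called with DESeq2 (-0.70, adjusted p = 0.0266), without Lars2 (-0.83, edgeR adjusted p = 0.0269), with a replicate block over all libraries, and without IFNG polysome replicate 1 or IFNG total replicate 2. Within each library the count ratio of Hsph1 to Hspa8 was 0.0285 to 0.0771 in the 6 total libraries and 0.106 to 0.350 in the 6 polysome libraries, with no overlap. This ratio compares how 2 genes are shared between pools and not their levels, since counts are not per length.

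Of the stress-inducible HSP70 pair, Hspa1b was lower on polysomes, with 46.0, 37.3 and 15.2 CPM in IFNG total, 28.2, 22.5 and 9.49 CPM in IL4 total, 16.2, 14.3 and 5.54 CPM in IFNG polysome and 18.0, 10.6 and 10.2 CPM in IL4 polysome. The groups overlapped, and the log2 difference was -1.02 ± 0.36 (SE, edgeR adjusted p = 0.0255), a call lost without IFNG total replicate 1, IL4 total replicate 1 or 2, IL4 polysome replicate 2 or 3, or IFNG polysome replicate 3. Its copy Hspa1a was not called (-0.29, edgeR adjusted p = 0.535), and since both may share reads this difference between them is uncertain. Hspbp1, another HSP70 exchange factor, was lower with 306, 234 and 65.3 CPM in IFNG total and 253, 180.5 and 122 CPM in IL4 total against 59.0, 62.0 and 35.1 CPM in IFNG polysome and 79.0, 83.2 and 105 CPM in IL4 polysome. Its polysome libraries lay below all total libraries of the same polarization, and the log2 difference was -1.50 ± 0.34 (SE, edgeR adjusted p = 0.00118).

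Both cytosolic HSP90 genes were higher on polysomes. The inducible Hsp90aa1 stood at 159, 221 and 552 CPM in IFNG total, 193, 233 and 409 CPM in IL4 total, 875, 753 and 175 CPM in IFNG polysome and 757, 879 and 588 CPM in IL4 polysome, a log2 difference of 1.18 ± 0.38 (SE, edgeR adjusted p = 0.0145). Replicate 3 was the highest total library in both polarizations. The IL4 groups were apart, while IFNG polysome replicate 3 lay between the 2 lowest IFNG total libraries. The constitutive Hsp90ab1 stood at 976, 1450.2 and 1112 CPM, 778, 1042 and 849 CPM, 1841, 2905 and 710.3 CPM and 1673, 2059 and 1394 CPM in the same order, a log2 difference of 0.78 ± 0.32 (SE, edgeR adjusted p = 0.0479). The IL4 groups were apart here too, and IFNG polysome replicate 3 stood below every total library. That call was lost under 16 of 20 alternatives, among them DESeq2 size factors, the removal of Lars2 and leaving out any 1 of the 12 libraries except IFNG polysome replicate 3, with edgeR adjusted p up to 0.201 without IFNG polysome replicate 2.

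Library IFNG polysome replicate 3, where Lars2 took 29.3% of the counts, held 1982 CPM of summed cytosolic chaperones against 4981 and 5507 CPM in replicates 1 and 2, while its ER sum of 1854 CPM lay between theirs. Leaving that library out left 7 members higher and 12 lower on polysomes, and the Hsp90aa1, Hsph1, Hspe1 and Dnajc15 calls were kept without it. The count ratio of Hsp90aa1 to Hsp90ab1 was 0.497 in IFNG total replicate 3 and 0.481 in IL4 total replicate 3, against 0.152 to 0.248 in the other 4 total libraries and 0.247 to 0.475 in the polysome libraries. In the total libraries the third replicates thus differed in 1 HSP90 gene more than in the other. On polysomes the ratio in replicate 3 was 0.247 with IFNG and 0.422 with IL4, near 0.259 and 0.427 in replicate 2.

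**Figure D2:**
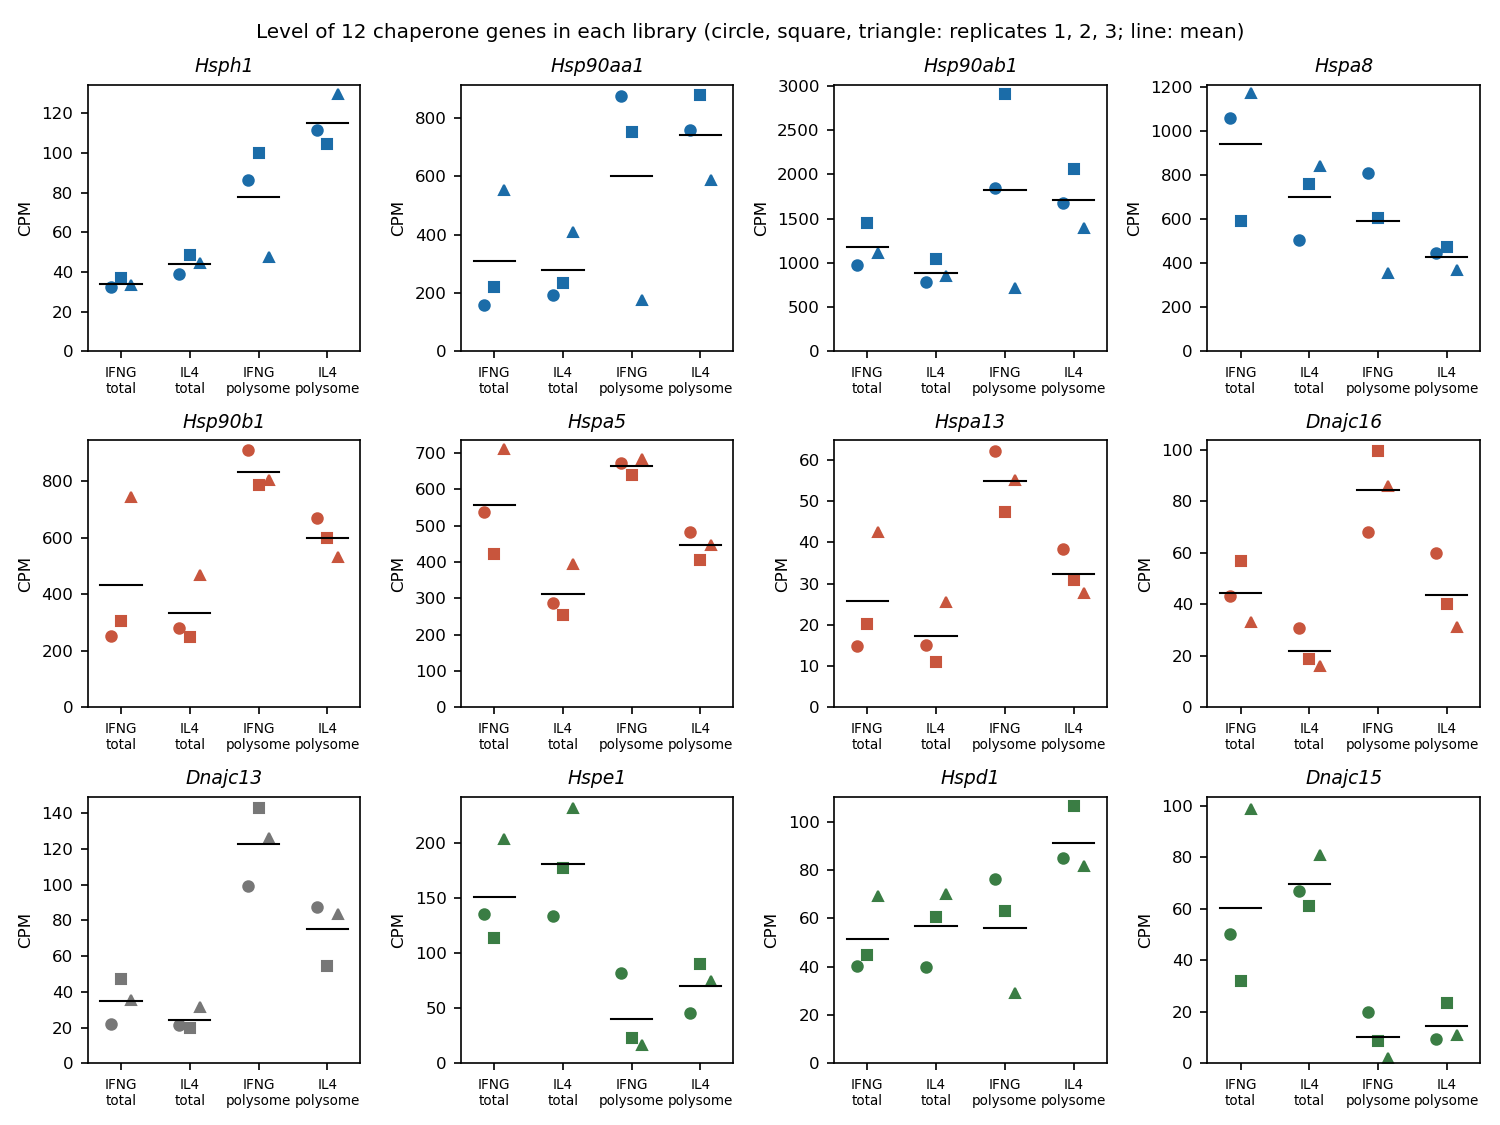
CPM of 12 chaperone genes in each of the 12 libraries, in 4 groups (blue: cytosol, red: ER, green: mitochondria, grey: endosome), with circle, square and triangle for replicates 1, 2 and 3 and a line for their mean. Hsph1, Hsp90b1, Hspa13, Dnajc16 and Dnajc13 stand above the total libraries of their polarization in every polysome library, Hspe1 and Dnajc15 stand below, and IFNG polysome replicate 3 (triangle) is the lowest of its group for both HSP90 genes.

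Of 16 tested cytosolic or nuclear J proteins 3 (18.8%) were lower on polysomes and 0 higher, against 25.7% lower and 22.6% higher of all features. Dnajc9, a nuclear J protein that also binds histones, stood at 12.4, 3.14 and 13.0 CPM in IFNG total, 24.7, 30.8 and 38.3 CPM in IL4 total, 8.55, 2.31 and 0.369 CPM in IFNG polysome and 9.95, 5.31 and 10.6 CPM in IL4 polysome. The IL4 groups were fully apart and the IFNG groups overlapped, with a log2 difference of -1.53 ± 0.45 (SE, edgeR adjusted p = 0.00825). The joined feature of Dnajc17, a nuclear J protein, and Zfyve19 was lower at -2.43 ± 0.45 (SE, edgeR adjusted p = 2.04e-04), with 27.2 to 78.4 CPM in the total and 3.03 to 17.8 CPM in the polysome libraries. Dnajb2, named here after its values were seen, was lower at -0.97 ± 0.38 (SE, edgeR adjusted p = 0.0390), a call lost under 9 of 19 alternatives. Dnajb1, the HSP40 partner of inducible HSP70, and Dnajc5, a J protein of secretory vesicles, were not called (-0.14 and 0.33, edgeR adjusted p = 0.687 and 0.302).

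The other HSP70 relatives and J proteins of the cytosol and nucleus were not called. Hspa4, an HSP110 relative of Hsph1, had 38.1 ± 11.1 CPM in IFNG total, 31.2 ± 10.2 CPM in IL4 total, 48.6 ± 7.98 CPM in IFNG polysome and 43.6 ± 7.49 CPM in IL4 polysome (SD, n = 3 each). Its own relative Hspa4l had 4.43 ± 3.79, 3.07 ± 2.77, 6.70 ± 1.89 and 6.40 ± 2.17 CPM in the same order. Neither passed the test, so of the 3 tested HSP110 genes Hsph1 alone was called. Dnaja1, a main J partner of Hspa8, had 63.7 ± 20.6, 43.8 ± 12.7, 68.0 ± 32.3 and 57.2 ± 18.5 CPM, and Dnajb6, which restrains aggregation and carries a heat shock element by the letters above, had 33.2 ± 6.81, 27.5 ± 6.32, 29.6 ± 9.63 and 32.9 ± 6.96 CPM. Dnajc7, which passes clients between HSP70 and HSP90, had 21.2, 21.2 and 36.8 CPM in IFNG total and 42.1, 47.9 and 21.1 CPM in IFNG polysome, and 14.0, 21.4 and 21.8 CPM and 28.9, 24.8 and 23.8 CPM with IL4. Dnajc8, a spliceosome-associated J protein, had 55.0, 124 and 14.4 CPM in the IL4 polysome libraries, a spread within 1 group that covers its values in all other libraries but IFNG polysome replicate 3.

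Of the CCT chaperonin, 2 of 7 tested subunit features (28.6%) were lower and 0 higher, against 25.7% lower and 22.6% higher of all features. The list median was -0.60. Cct7 stood at 356, 218 and 159 CPM in IFNG total, 297, 289 and 288 CPM in IL4 total, 171, 128 and 98.3 CPM in IFNG polysome and 192, 167 and 211 CPM in IL4 polysome. The IL4 groups were apart, the IFNG groups overlapped, and the log2 difference was -0.75 ± 0.28 (SE, edgeR adjusted p = 0.0335). That call and the one for Cct4, at -0.93 ± 0.38 (SE, edgeR adjusted p = 0.0472) and named after its values were seen, were lost under 8 and 9 of 20 alternatives. The joined Cct8_Usp16 feature differed by 0.27 ± 0.33 (SE, edgeR adjusted p = 0.515). The subunit Tcp1 falls outside the naming rule, and its joined feature Acat3_Tcp1 differed by 0.58 ± 0.29 (SE, edgeR adjusted p = 0.0997).

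Low counts set what can be said of the small heat shock proteins. The joined feature of Cryab (alpha B-crystallin) and its divergent neighbour Hspb2 had 83 counts in IFNG total against 2 in IFNG polysome, a ratio of 21.7 with a 95% counting interval of 5.83 to 182, and 54 in IL4 total against 0 in IL4 polysome, at least 5.02-fold lower against 3 counts over the group. The bounds reflect counting error alone, since the reads carried no molecular identifiers. Its edgeR adjusted p was 0.00101. The untested Hspb1 (HSP27), the family's best-known stress-induced member, had 60 counts in IFNG total against 2 in IFNG polysome, a ratio of 15.7 with an interval of 4.16 to 133. It had 3.17, 0.930 and 0.173 CPM in the IFNG total libraries, so replicate 1 carried most of it. With IL4 it had 29 counts against 3, a ratio of 2.70 with an interval of 0.836 to 13.8, which includes 1. Hspb6 was not called, with 1.49 ± 0.355 CPM in IFNG total, 3.15 ± 0.595 CPM in IL4 total, 1.13 ± 0.776 CPM in IFNG polysome and 2.20 ± 1.78 CPM in IL4 polysome (SD, n = 3 each). Hspb11, which despite its symbol is an intraflagellar transport subunit, was lower at -2.02 ± 0.62 (SE, edgeR adjusted p = 0.0105), from 1.40 to 9.85 CPM in total and 0.210 to 3.19 CPM in polysome libraries.

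In the ER the HSP90 and HSP70 members pointed the same way, and 2 of the 3 were called higher, against 22.6% of all features. Hsp90b1, which encodes GRP94, stood at 251, 306 and 744 CPM in IFNG total, 282, 251 and 469 CPM in IL4 total, 912, 788 and 806 CPM in IFNG polysome and 669, 599 and 531 CPM in IL4 polysome. Every polysome library exceeded every total library of its polarization, and the log2 difference was 0.90 ± 0.31 (SE, edgeR adjusted p = 0.0215). The call was lost without replicate 1 or 2 of either total group (edgeR adjusted p = 0.0530 to 0.0672), the libraries in which it was lower than in replicate 3.

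Hspa13, an ER-associated HSP70 without a peptide-binding domain, stood at 15.0, 20.2 and 42.4 CPM, 15.1, 11.1 and 25.5 CPM, 62.1, 47.3 and 55.0 CPM and 38.4, 30.8 and 27.6 CPM in IFNG total, IL4 total, IFNG polysome and IL4 polysome. Its groups were apart within each polarization, with a log2 difference of 1.00 ± 0.31 (SE, edgeR adjusted p = 0.0120). Hspa5, which encodes BiP, stood at 537, 421 and 712 CPM, 287, 253 and 394 CPM, 672, 639 and 685 CPM and 484, 407 and 447 CPM in the same order. The IL4 polysome libraries lay above the IL4 total libraries, the IFNG groups overlapped, and the difference of 0.39 ± 0.27 (SE, edgeR adjusted p = 0.242) was not called. The promoters of Hspa5 and Hsp90b1 both hold the ER stress element printed above. Dnajc3 holds it as well and was not called, as given below. Hsp90b1 was called and Hspa5 was not, but their differences were not compared by a test. Any part of the element was not tested.

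The ER J proteins were split. Dnajc16, an ER membrane J protein, was higher at 0.97 ± 0.29 (SE, edgeR adjusted p = 0.00882), with 43.2, 56.9 and 33.2 CPM in IFNG total, 31.0, 18.6 and 16.2 CPM in IL4 total, 68.0, 99.4 and 86.1 CPM in IFNG polysome and 60.1, 40.0 and 31.0 CPM in IL4 polysome. The groups were apart within each polarization, though with IL4 by less than 1 CPM. The joined feature of Dnajc1, an ER membrane J protein, and Mllt10 was higher at 0.70 ± 0.29 (SE, edgeR adjusted p = 0.0483), a call lost under 12 of 19 alternatives including the removal of Lars2. The joined feature of Dnajc14, an ER membrane J protein, and Ormdl2 was lower at -0.83 ± 0.27 (SE, edgeR adjusted p = 0.0151) and apart within both polarizations. Of the luminal J proteins induced in the unfolded protein response, Dnajc3 (P58IPK), Dnajb9 (ERdj4) and Dnajb11 (ERdj3), none was called, with log2 differences of 0.05, -0.95 and -0.82 and edgeR adjusted p = 0.942, 0.139 and 0.0821.

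Of the mitochondrial members 6 of 9 were lower on polysomes and 0 higher, against 25.7% lower and 22.6% higher of all features. Hspe1, the HSP10 lid of the folding chamber, stood at 136, 114 and 204 CPM in IFNG total, 134, 178 and 232 CPM in IL4 total, 81.8, 22.7 and 17.0 CPM in IFNG polysome and 45.9, 89.9 and 75.3 CPM in IL4 polysome. All polysome libraries lay below all total libraries, and the log2 difference was -1.62 ± 0.36 (SE, edgeR adjusted p = 9.65e-04). Its partner Hspd1, the HSP60 chamber, stood at 40.1, 45.0 and 69.3 CPM, 39.7, 60.7 and 70.3 CPM, 76.1, 63.1 and 29.2 CPM and 84.9, 107 and 81.7 CPM in the same order. Its IL4 polysome libraries lay above the IL4 total libraries, the IFNG groups overlapped, and the difference of 0.40 ± 0.29 (SE, edgeR adjusted p = 0.261) was not called.

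Hspe1 and Hspd1 are transcribed from either side of the heat shock elements shown above, and 1 of the pair was lower on polysomes while the other was not called. Hsph1 and Dnajb6 carry a heat shock element as well, and Hsph1 was higher on polysomes while Dnajb6 was not called. Any part of the elements in these differences was not tested. The count ratio of Hspe1 to Hspd1 was 3.38, 2.52 and 2.95 in IFNG total, 3.37, 2.93 and 3.30 in IL4 total, 1.08, 0.360 and 0.582 in IFNG polysome and 0.541, 0.844 and 0.921 in IL4 polysome. The lowest total library, at 2.52, was above the highest polysome library, at 1.08, and within each fraction the 2 polarizations overlapped. The ratio was not tested, and as counts are not per length its absolute size says nothing of which mRNA is more abundant. Mortalin, the mitochondrial HSP70 (Hspa9), had 57.6 ± 17.8 CPM in IFNG total, 55.1 ± 31.6 CPM in IL4 total, 57.2 ± 19.0 CPM in IFNG polysome and 63.7 ± 16.2 CPM in IL4 polysome (SD, n = 3 each) and was not called (edgeR adjusted p = 0.804).

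**Figure D3:**
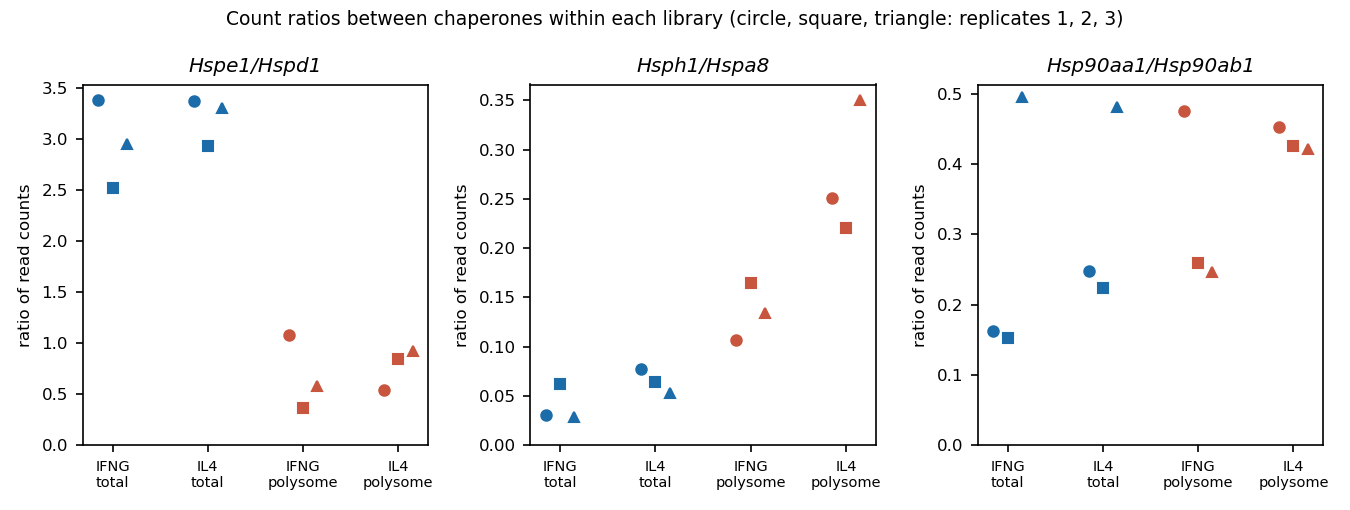
Ratios of read counts between 2 chaperone genes within each library, for the 4 groups (blue: total, red: polysome; circle, square and triangle: replicates 1, 2 and 3). Hspe1/Hspd1 is 2.52 to 3.38 in total and 0.360 to 1.08 in polysome libraries, Hsph1/Hspa8 is 0.0285 to 0.0771 and 0.106 to 0.350, and Hsp90aa1/Hsp90ab1 sets the third total replicates apart at 0.481 and 0.497.

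Of the 6 mitochondrial J proteins 5 were lower on polysomes, against 25.7% of all features. Dnajc15, a J protein of the inner membrane import motor, stood at 50.4, 32.1 and 98.8 CPM in IFNG total, 67.0, 61.0 and 81.0 CPM in IL4 total, 20.0, 8.62 and 2.22 CPM in IFNG polysome and 9.40, 23.4 and 10.97 CPM in IL4 polysome. All polysome libraries lay below all total libraries, and the log2 difference was -2.38 ± 0.41 (SE, edgeR adjusted p = 1.06e-04). Dnajc4 was lower still, with 37.2, 22.6 and 16.1 CPM, 38.6, 33.5 and 19.7 CPM, 4.49, 0.210 and 0 CPM and 4.22, 3.19 and 7.19 CPM in the same order and a log2 difference of -3.18 ± 0.50 (SE, edgeR adjusted p = 5.11e-05). Its count in IFNG polysome replicate 3 was 0, and again no polysome library reached a total library. Dnaja3 (Tid1), the J protein of mitochondrial HSP70, was lower at -1.51 ± 0.39 (SE, edgeR adjusted p = 0.00332), with 11.5 to 34.6 CPM in the total and 4.41 to 19.9 CPM in the polysome libraries, which overlapped with IFNG and not with IL4.

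The joined feature of Dnajc19, a relative of Dnajc15 in the import motor, and Fxr1 was lower at -0.75 ± 0.28 (SE, edgeR adjusted p = 0.0295). That call was lost under 5 of 19 alternatives, without IFNG total replicate 1, IL4 total replicate 1 or 2, IL4 polysome replicate 1 or IFNG polysome replicate 3 (edgeR adjusted p up to 0.0797). Dnajc11, an inner membrane organizer named after its values were seen, was lower at -0.90 ± 0.30 (SE, edgeR adjusted p = 0.0177), a call lost under 2 of 20 alternatives, without IFNG total replicate 1 or IL4 total replicate 2. The exception was Dnajc30 with its neighbour Wbscr22, a methyltransferase gene, at 0.44 ± 0.31 (SE, edgeR adjusted p = 0.244), which holds reads of both genes. The lower calls of Hspe1, Dnajc15, Dnajc4 and Dnaja3 were kept in all 20 alternatives in which each was tested.

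Outside these compartments, Dnajc13 (RME-8), an endosomal J protein that recruits HSP70 to sorting endosomes, had the lowest adjusted p of all higher members. It stood at 21.9, 47.1 and 35.2 CPM in IFNG total, 21.2, 19.7 and 31.6 CPM in IL4 total, 99.1, 143 and 126 CPM in IFNG polysome and 87.6, 54.5 and 83.6 CPM in IL4 polysome. All polysome libraries lay above all total libraries, and the log2 difference was 1.73 ± 0.29 (SE, edgeR adjusted p = 8.07e-05). Dnajc28 was called at 1.24 ± 0.51 (SE, edgeR adjusted p = 0.0498), with 1.59 ± 0.668 CPM in IFNG total, 1.73 ± 0.935 CPM in IL4 total, 2.45 ± 1.01 CPM in IFNG polysome and 6.06 ± 4.59 CPM in IL4 polysome (SD, n = 3 each), and that call was lost under 14 of 19 alternatives.

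The lists of partner genes, which were not picked for how they moved in these fits but were set with earlier results of these data known, showed calls on both sides. Of 29 tested cofactors and regulators of the cytosolic system 3 were higher and 12 lower on polysomes, with a median of -0.46. Called in all were 51.7% of this list, against 48.2% of all features (22.6% higher and 25.7% lower). Bag3, an HSP70 exchange factor of selective autophagy, was higher with 53.7 ± 10.1 CPM in the 6 total and 128 ± 55.9 CPM in the 6 polysome libraries, a log2 difference of 1.21 ± 0.29 (SE, edgeR adjusted p = 0.00207). Fkbp5, an HSP90 cochaperone, was higher at 1.07 ± 0.27 (SE, edgeR adjusted p = 0.00302). The joined Ahsa2_Usp34 was higher at 1.25 ± 0.32 (SE, edgeR adjusted p = 0.00267). Hsbp1, which binds heat shock factor 1, was lower at -2.27 ± 0.36 (SE, edgeR adjusted p = 4.95e-05). Bag2, an inhibitor of the HSP70 ligase Stub1, was lower at -2.01 ± 0.61 (SE, edgeR adjusted p = 0.00925), and the prefoldin subunit Pfdn5, which hands actin and tubulin to CCT, at -1.96 ± 0.37 (SE, edgeR adjusted p = 2.24e-04).

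Of 27 ER folding and unfolded protein response genes 9 were higher and 5 lower, with a median of 0.43. Called in all were 51.9% of this list and 57.9% of the mitochondrial list below. Over all features it was 48.2% (22.6% higher and 25.7% lower). Uggt1, the folding sensor of glycoproteins, was higher with 89.4 ± 15.0 CPM in the 6 total and 295 ± 72.2 CPM in the 6 polysome libraries, a log2 difference of 1.73 ± 0.28 (SE, edgeR adjusted p = 6.72e-05). Edem1, which sorts misfolded glycoproteins for degradation, was higher at 1.42 ± 0.32 (SE, edgeR adjusted p = 9.82e-04), and the stress sensor kinase Eif2ak3 (PERK) at 1.41 ± 0.41 (SE, edgeR adjusted p = 0.00743). Manf, a secreted ER stress protein, was lower with 333 ± 131 CPM in the 6 total and 62.2 ± 60.2 CPM in the 6 polysome libraries, a log2 difference of -2.45 ± 0.42 (SE, edgeR adjusted p = 9.59e-05). Also lower were the BiP cofactor Sdf2l1 at -2.31 ± 0.43 (SE, edgeR adjusted p = 2.04e-04) and the joined feature of the prolyl isomerase Ppib and Snx22 at -2.39 ± 0.40 (SE, edgeR adjusted p = 8.55e-05). Of 19 mitochondrial partners and proteases 1 was higher, the inner membrane protease Afg3l2 at 1.22 ± 0.31 (SE, edgeR adjusted p = 0.00258), and 10 were lower, with a median of -0.92. The import genes Tomm20 at -3.04 ± 0.40 (SE, edgeR adjusted p = 7.69e-06), Timm23 at -2.30 ± 0.33 (SE, edgeR adjusted p = 1.80e-05) and Pam16 at -2.08 ± 0.39 (SE, edgeR adjusted p = 2.38e-04) led these, and Dnajc15 and Dnajc19_Fxr1 of the import motor were lower as given above.

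The second comparison, IFNG against IL4 in total mRNA, asked whether polarization changed chaperone transcripts. Of the 67 tested members 0 were higher and 0 lower (edgeR), against 7.08% higher and 3.93% lower of all features, and 4 members had an unadjusted p under 0.05. All IFNG libraries lay above all IL4 libraries for 6 members and below them for 3. Of all 10421 tested features this held for 1398 and 1277. DESeq2 called Hspbap1 higher and Dnajc9 lower. Same-numbered libraries deviated together within each fraction, though some differently numbered ones did so too. With the replicate number as a block within each fraction 2 members were higher, Dnajc16 and Hspbap1, and 1 was lower, Dnajc9. The median log2 difference of the members was 0.27 against 0.04 for all features, and it was -0.05 against -0.06 when a mean of 10 CPM was required.

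Of the members Dnajc9 showed the largest difference in total mRNA, and its values in the 6 total libraries given above were fully apart, with 3.14 to 13.0 CPM under IFNG and 24.7 to 38.3 CPM under IL4. The log2 difference was -1.71 ± 0.62 (SE, edgeR adjusted p = 0.0857) without a block, -1.88 (edgeR adjusted p = 0.0160) with the block within fractions and -1.95 (edgeR adjusted p = 0.0264) with a block over all libraries. It was also called without IFNG polysome replicate 1 or 3 (edgeR adjusted p = 0.0301 and 0.0284). On polysomes the groups overlapped and the difference was -1.06 ± 0.65 (SE, edgeR adjusted p = 0.316), while without IFNG polysome replicate 1 it was -2.53 and called (edgeR adjusted p = 0.0191). Hspbap1, whose product binds the small chaperone HSPB1 and which is named here because its call changed, had 7.36, 5.70 and 3.45 CPM in IFNG total and 2.32, 1.16 and 1.71 CPM in IL4 total, fully apart, at 1.67 ± 0.61 (SE, edgeR adjusted p = 0.0871) and, with the block, 1.65 (edgeR adjusted p = 0.0417).

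The ER members Hspa5 and Dnajc16 were apart between the polarizations in both fractions without passing the test. On polysomes 11 members were apart with IFNG higher and 7 with IFNG lower, against 1582 and 1672 of the 10421 tested features. Hspa5 had 421 to 712 CPM in IFNG total and 253 to 394 CPM in IL4 total, and 639 to 685 CPM against 407 to 484 CPM on polysomes, with log2 differences of 0.84 ± 0.38 (SE, edgeR adjusted p = 0.200) and 0.58 ± 0.38 (SE, edgeR adjusted p = 0.356). Dnajc16 had 33.2 to 56.9 CPM against 16.2 to 31.0 CPM in total mRNA and 68.0 to 99.4 CPM against 31.0 to 60.1 CPM on polysomes, with log2 differences of 1.02 ± 0.41 (SE, edgeR adjusted p = 0.126) and 0.94 ± 0.41 (SE, edgeR adjusted p = 0.135). With the block within fractions Dnajc16 was called in total mRNA (1.04, edgeR adjusted p = 0.0433), and Hspa5 was called under none of the alternatives run. Hsp90b1 overlapped in total mRNA, where IFNG replicate 3 at 744 CPM stood apart from 251 and 306 CPM, with a difference of 0.38 ± 0.44 (SE, edgeR adjusted p = 0.749) that turned to -0.29 without that library.

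**Figure D4:**
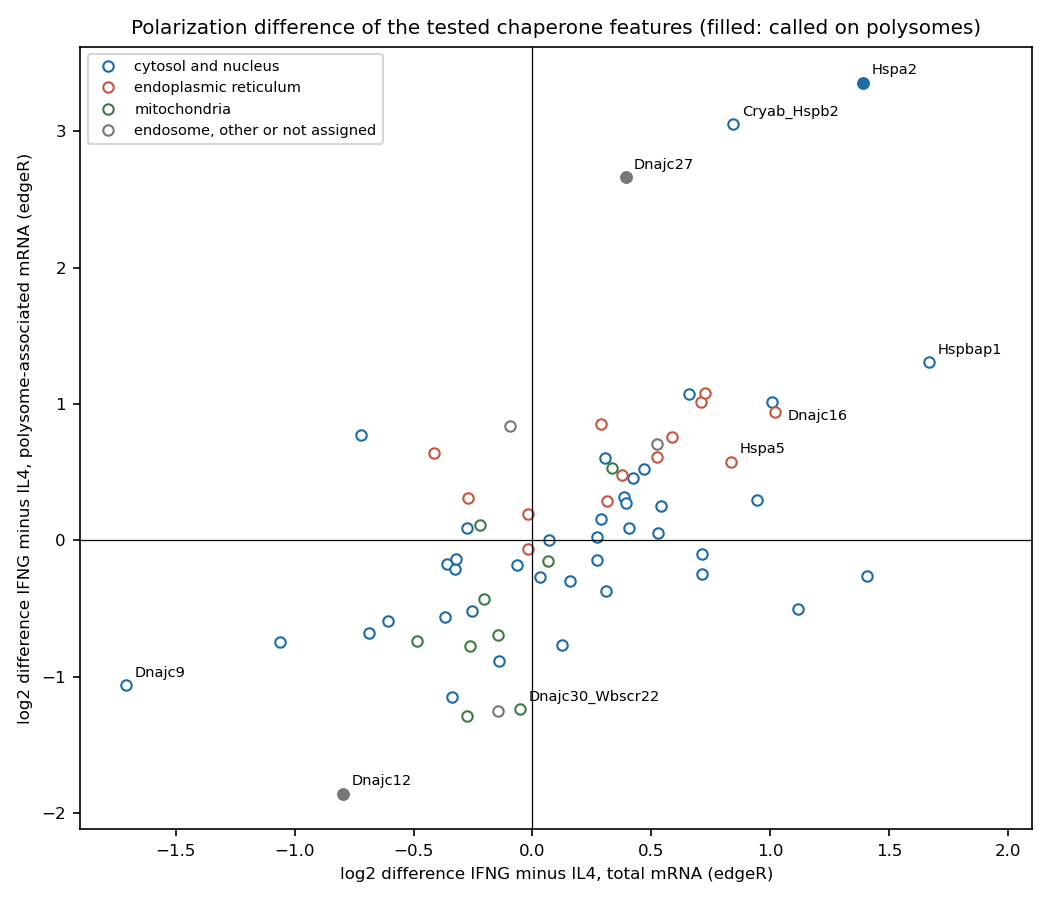
Fitted log2 difference of IFNG minus IL4 in total mRNA (x axis) and in polysome-associated mRNA (y axis) for the 67 tested chaperone features, coloured by compartment, with filled points for the 3 features called on polysomes. Of the 13 ER features 12 lie above 0 on the y axis and 7 of the 9 mitochondrial features lie below it. Of all tested features, which are not drawn, 47.3% were above 0 on polysomes.

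On polysomes, the third comparison called 2 members higher with IFNG and 1 lower, against 7.54% higher and 6.58% lower of all features. All 3 are genes of few counts. Hspa2, an HSP70 best known from the testis, had 3.08, 2.94 and 0.369 CPM in IFNG polysome and 0.409, 0 and 0 CPM in IL4 polysome, or 50 counts against 3, a ratio of 11.3 with a 95% counting interval of 3.67 to 56.9. IFNG replicate 3 lay below the highest IL4 library, so the groups overlapped, and the edgeR adjusted p was 0.0465.

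Dnajc27, a small GTPase with a J domain, had 1.85, 2.73 and 5.17 CPM in IFNG polysome and 0.817, 0.354 and 0 CPM in IL4 polysome, fully apart, a log2 difference of 2.66 ± 0.87 (SE, edgeR adjusted p = 0.0439) resting on 48 counts against 7. Dnajc12, which assists aromatic amino acid hydroxylases, was lower with 3.44, 2.73 and 2.59 CPM in IFNG polysome against 5.18, 9.92 and 17.8 CPM in IL4 polysome, fully apart, at -1.86 ± 0.59 (SE, edgeR adjusted p = 0.0371). The 3 calls were lost together without IFNG polysome replicate 2, IL4 total replicate 2, or IL4 polysome replicate 2 or 3, with edgeR adjusted p of 0.0526 to 0.218. Hspa2 and Dnajc27 were also lost without IL4 total replicate 1 or 3, Hspa2 and Dnajc12 without IFNG polysome replicate 1, and Dnajc27 and Dnajc12 without IFNG polysome replicate 3. In total mRNA none of the 3 was called (1.39, 0.39 and -0.80, edgeR adjusted p = 0.356, 0.854 and 0.462).

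With the replicate block within fractions, the count on polysomes was 3 higher and 2 lower. The additions were Dnajb14, an ER membrane J protein named for this change, at 1.16 (edgeR adjusted p = 0.0376, against 0.200 without the block), and Dnajc30_Wbscr22 at -1.11 (edgeR adjusted p = 0.0271). The latter had 86.2, 153 and 114 CPM in IFNG polysome and 146, 229.8 and 456 CPM in IL4 polysome, overlapping since IFNG replicate 2 exceeded IL4 replicate 1, and 160.0, 131 and 102 CPM and 156, 138 and 113 CPM in total mRNA, where the difference was -0.05 ± 0.43 (SE, edgeR adjusted p = 0.972). Without the block its polysome difference was -1.24 ± 0.44 (SE, edgeR adjusted p = 0.0623), and DESeq2 called it (-1.25, adjusted p = 0.0322).

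By compartment the polysome differences were uneven, with 0 ER and 0 mitochondrial features called. The ER features had a median of 0.61, and 12 of 13 were above 0, while 7 of the 9 mitochondrial features were below 0 with a median of -0.69. The cytosolic median was -0.12, with 19 of 40 above 0, and the median of all features was -0.06, with 47.3% of them above 0. The ER and mitochondrial medians kept their signs with DESeq2 size factors, with a minimum of 10 CPM and without Lars2. Without Lars2 they were 0.73 and -0.58, against 0.06 for all features. Without joined features they were 0.63 and -0.43, against -0.06 for all features. Without IFNG polysome replicate 1 the mitochondrial Dnajc4 (-5.05, edgeR adjusted p = 9.54e-04, against -1.29 with all libraries) and Hspe1 (-1.81, edgeR adjusted p = 0.0105, against -0.78) were called lower. In total mRNA the ER median was 0.38 with 9 of 13 above 0, and the mitochondrial median was -0.20 with 2 of 9 above 0. Over all features the median there was 0.04, with 51.7% above 0.

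**Figure D5:**
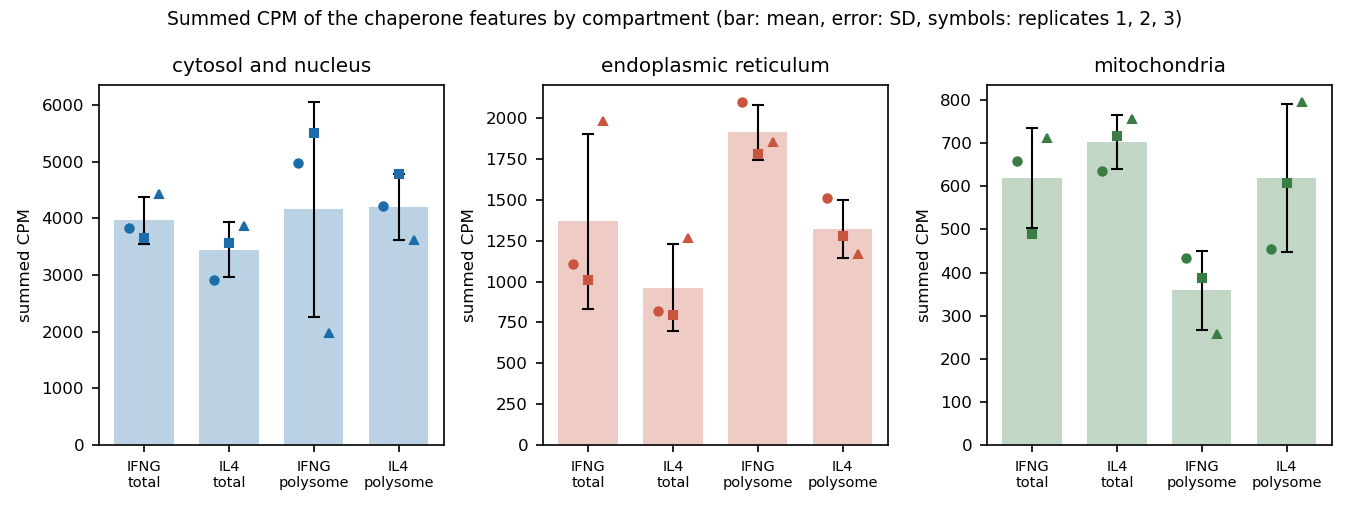
Summed CPM of the chaperone features of each compartment per library, in the 4 groups, with bars for the mean, error bars for the SD of 3 libraries and symbols for the replicates. The ER sum is 1782 to 2100 in IFNG polysome and 1170 to 1513 in IL4 polysome libraries, and the mitochondrial sum, joined features included, is 256 to 434 and 454 to 796.

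The compartment sums, which weight abundant members, followed the medians on polysomes in the ER and in mitochondria. Most of the ER sum was Hsp90b1 and Hspa5, which were themselves apart between the polarizations on polysomes. Their means were 835 and 665 CPM of 1912 CPM in IFNG polysome, and 600 and 446 CPM of 1321 CPM in IL4 polysome. The ER sum was 1109.8, 1012 and 1983 CPM in IFNG total, 821, 798 and 1269 CPM in IL4 total, 2100.3, 1782 and 1854 CPM in IFNG polysome and 1513, 1280.1 and 1170.2 CPM in IL4 polysome, so that the polysome groups did not overlap and the total groups did. The mitochondrial sum was 658, 489.6 and 711 CPM, 635, 717 and 757 CPM, 434, 386 and 256 CPM and 454, 607 and 796 CPM in the same order. Its polysome groups did not overlap either, with IL4 above IFNG, but this rested on the joined features. Without them the sum was 311, 179.5 and 115 CPM in IFNG polysome and 260.2, 300.3 and 267 CPM in IL4 polysome, and IFNG replicate 1 then exceeded every IL4 library. The cytosolic sum was 3824, 3645 and 4429.8 CPM, 2912, 3565 and 3870.4 CPM, 4981, 5507 and 1982 CPM and 4209, 4785 and 3618 CPM, with overlap in both fractions. These sums were not tested.

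Few partner genes were called between the polarizations. Over all features 7.08% were higher and 3.93% lower in total mRNA, and 7.54% and 6.58% on polysomes. In total mRNA, of the 29, 27 and 19 tested genes, 1 was higher, the ER stress sensor Atf6 at 87.3 ± 27.9 CPM with IFNG and 33.5 ± 5.66 CPM with IL4 (SD, n = 3 each), a log2 difference of 1.38 ± 0.38 (SE, edgeR adjusted p = 0.0180). In these lists 0 genes were called lower in total mRNA. On polysomes 0 were higher and 2 lower, both mitochondrial, the import motor subunit Pam16 at -1.70 ± 0.57 (SE, edgeR adjusted p = 0.0481) and the iron-sulfur J protein Hscb at -1.70 ± 0.55 (SE, edgeR adjusted p = 0.0406). In the ER list, which holds Atf6 itself, 21 of 27 genes (77.8%) were above 0 in total mRNA, against 51.7% of all features. Its median was 0.19, against 0.04 for all features. Any part of Atf6 in this was not tested.

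The last comparison asked whether the polarization difference was another on polysomes than in total mRNA, the interaction of the 2 factors. It called 0 of 67 members in either direction (edgeR), as it did of all features, where the share called was 0% higher and 0% lower. At an unadjusted p under 0.05 there were 0 members and 176 features, and DESeq2 called 0 members and 1 feature, lower. The median interaction of the members was -0.07 against -0.10 for all features. The calls of Hspa2, Dnajc27 and Dnajc12 on polysomes alone are thus not shown to differ from total mRNA, with interaction terms of 1.97 ± 1.38 (SE, edgeR adjusted p = 1.00), 2.27 ± 1.11 (SE, edgeR adjusted p = 1.00) and -1.06 ± 0.79 (SE, edgeR adjusted p = 1.00).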

How the data were processed

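Per the submitters' processing notes the reads were handled with HISAT, HISAT2 and limma on mm10. For the counter, strand setting and annotation the sources used here give nothing, so reads of a gene and an antisense or overlapping neighbour cannot be told apart. The authors deposited raw whole-number counts per feature for 12 libraries, and log2 values for 11006 features (71 members), which were used only to count the members they hold. From the counts, edgeR 4.0.16 (R 4.3.3, limma 3.58.1) kept 10421 features (filterByExpr), scaled by TMM and fitted 1 robust quasi-likelihood model over 4 groups, with Benjamini-Hochberg adjustment over all tested features and a threshold of 0.05. CPM values are on TMM-scaled sizes and intervals are exact at 95%. The step was tested on simulated data.

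Same-numbered libraries deviated together within total (r = 0.15 to 0.75) and within polysome libraries (r = 0.16 to 0.37), and not in every pair between fractions. Differently numbered libraries gave r = -0.71 to 0.41 within total and -0.39 to 0.24 within polysome libraries, so the ranges overlapped. IFNG total replicate 2 deviated more with IL4 total replicate 1 (r = 0.41) than with IL4 total replicate 2 (r = 0.15). The numbers were taken to pair libraries within a fraction, which these values do not settle. Total and polysome mRNA came from the same preparations, but the main fit had no term for the preparation. With such a term, each number in a polarization taken as 1 preparation, 7 members were higher and 16 lower on polysomes against total. Alternatives (22) covered DESeq2 1.42.0, filters, Lars2, joined features, replicate blocks and each library left out, and the block within fractions was chosen after seeing the data. Named members were the called ones with the largest changes (up to 10 a direction and comparison) and the 2 with the highest mean CPM of each list, 33 in all. Of each partner list up to 3 called genes a direction were named, and members outside the rule were named by role or changed call after their values were seen. Members and lists were chosen with earlier results of these data known. Gene symbols were placed in compartments from general knowledge. Protein sequences and transcript lengths were not used here, so the part of coding length in the differences between polysomes and total mRNA was not tested.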

Additional observations from a re-analysis of the deposited data

How the results depend on the processing

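Of 1263 values of named chaperones under the alternatives, 1147 kept direction and side of the threshold, 86 lost and 27 gained a call, and 3 reversed. The 1147 include results that were uncalled and stayed so. On polysomes against total, 5 of 9 higher and 10 of 16 lower calls were kept in all alternatives in which each was tested. Between the polarizations on polysomes, 0 of 2 higher and 0 of 1 lower calls were. The reversals were in total mRNA and uncalled: Hsp90b1 gave -0.29 without IFNG total replicate 3 (0.70 without IL4 total replicate 3, 0.38 with all), and Dnajc30_Wbscr22 gave 0.057 without IL4 total replicate 1 and 0.056 without IFNG total replicate 3 (-0.27 without IFNG total replicate 1, -0.05 with all). In total mRNA, where 0 members were called, DESeq2 called 1 higher and 1 lower and the replicate block within fractions 2 and 1, and 1 was lower with no filter, with a replicate block over all libraries and with only the libraries of the comparison. On polysomes, with 2 higher and 1 lower, a minimum of 10 CPM and only the libraries of the comparison gave 0 and 0, and DESeq2 and the replicate block within fractions gave 2 lower. Leaving out 1 library gave 0 to 1 lower in total mRNA, 0 to 3 higher and 0 to 3 lower on polysomes, and 5 to 9 higher and 11 to 21 lower on polysomes against total. Over all features the replicate block within fractions gave 800 lower (410 without) in total mRNA and 1188 higher (786) and 1223 lower (686) on polysomes, and leaving out 1 library gave 237 to 481, 496 to 1001 and 351 to 960. The replicate block across fractions changed, for polysomes against total, the calls of Cct4, Hspa8 and Hspa4l, and by preparation those of Hsp90ab1, Cct4, Dnajc28 and Dnajb9. Without Lars2 the summed CPM was 4509 for the cytosol in IFNG total, 799 for mitochondria and 47.8 for the others in IL4 total, and without joined features the mitochondrial sum was 416 in IFNG total, 465 in IL4 total, 202 in IFNG polysome and 276 in IL4 polysome. The cause of these changes was not tested, beyond fewer features or libraries where the alternative removes them. Depth limits the features near 3 counts, chiefly in the polysome libraries.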
